A study of Mus musculus with 4 samples.

Results

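The genes described here encode the contractile apparatus of smooth muscle cells and myofibroblasts. They are the actins Acta2 and Actg2, the tropomyosins Tpm1 and Tpm2, the smooth muscle myosin heavy chain Myh11, the myosin regulatory light chain Myl9, the actin-binding proteins Tagln, Cnn1 and Cald1, and the intermediate filament protein desmin (Des). Every probe set annotated to exactly 1 of these 10 genes was taken, which gave 20 of the 22690 probe sets on the array and 10 of 12394 named genes. Actg2 and Tpm2 were chosen by their high intensities in the Het arrays, so all differences of Het from WT are given as descriptions without a test. The other 8 genes share their function. Of the 10 genes, 6 were read by more than 1 probe set.

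Total RNA of mouse mitral valve was measured on 4 single-colour arrays. The Hom array came from Fbn1 C1039G/C1039G mice, the pair of Het arrays from mice labelled Fbn1 C1039/+, and the WT array from Fbn1 +/+ mice, so the groups held 1, 2 and 1 arrays and 2, 1 and 0 mutant copies of the gene for fibrillin-1. The Het label does not write the substituted residue. No label gave age, sex, strain, treatment or the number of animals behind an array, and the arrays are the only unit of replication. Values are intensities on the deposited linear scale, and 4 arrays limit the precision of each of them. A floor of 18.9, the 25th percentile of all values, was set before log2 differences were taken, and probe sets with a mean of at least 62.1 were kept for comparisons across the array.

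Smooth muscle contraction runs on actin filaments decorated with tropomyosin, caldesmon, calponin and transgelin, which slide against myosin filaments when the regulatory light chain is phosphorylated. Most cells of a mitral valve leaflet are fibroblast-like interstitial cells, and activated interstitial cells that take up Acta2 and Tagln are called myofibroblasts. Serum response factor binds the CArG box in front of many of these genes and, with coactivators of the myocardin family, drives their transcription. Tropomyosins and caldesmon are also made as cytoplasmic or striated muscle isoforms by alternative splicing, and desmin and Tpm1 are abundant in cardiomyocytes.

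**Figure D1:**
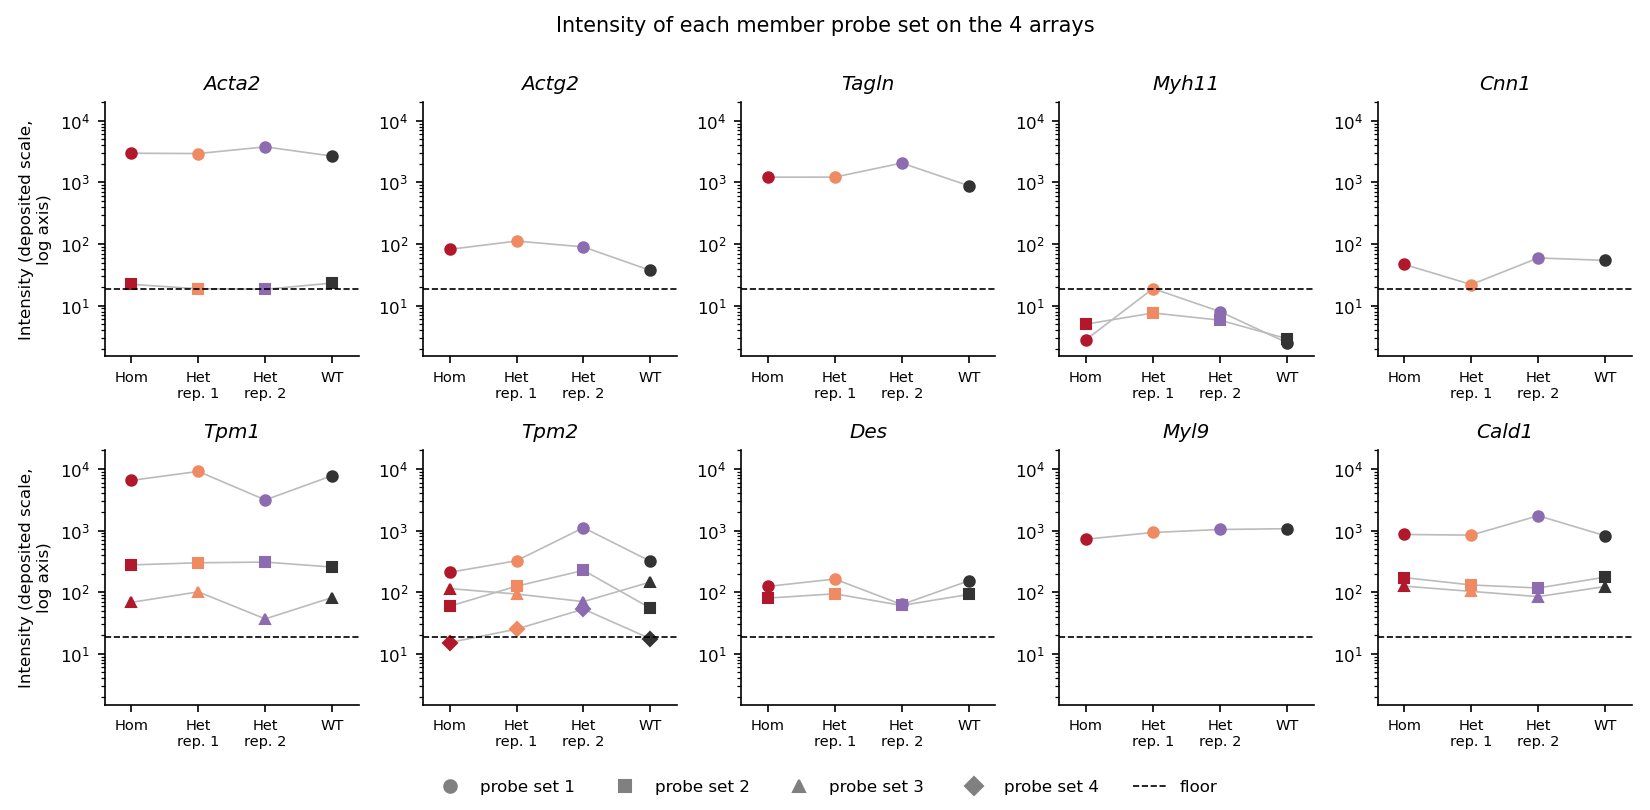
Intensity of each of the 20 member probe sets (vertical axes, deposited scale, logarithmic) on the Hom, Het replicate 1, Het replicate 2 and WT arrays (horizontal axes). Each panel is 1 gene, marker shapes number its probe sets from the highest mean down, thin lines join the values of 1 probe set, and the dashed line is the floor of 18.9. Actg2 is lowest in WT, Tpm2 probe sets 1, 2 and 4 are highest in Het replicate 2, and Myh11 lies at or below the floor on all 4 arrays.

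The label of smooth muscle was met only in part. Acta2 and Tagln were bright on every array, but Myh11, the myosin heavy chain that marks differentiated smooth muscle, was at or below the floor on all 4 arrays with both of its probe sets (1448962_at and 1418122_at). The higher of them read 2.8 in Hom, 18.9 and 8 in Het, and 2.5 in WT. Lmod1, the smooth muscle leiomodin that nucleates actin filaments, singled out after its values were seen, was below the floor on all 4 arrays as well, at 8.9 in Hom, 4.9 and 17.1 in Het, and 8.8 in WT. It was the only 1 of 20 further genes of the smooth muscle apparatus on the array to be so. Of these 20 genes 14 were kept, among them Smtn, smoothelin of contractile smooth muscle. Cnn1, the calponin of differentiated smooth muscle, stayed under the mean of 62.1 needed to be kept. After this filter 8 of the 10 genes and 15 of the 20 probe sets remained. No count over the remaining ones is used as support, since a gene can pass through the group in which it is high.

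One Het array stood apart from the other 3. Het replicate 2 was at least 2-fold from WT at 7.32% of 11356 kept probe sets, against 2.01% for Het replicate 1 and 1.23% for Hom. The ratio of 3' to 5' control probes for Actb, which reads RNA quality, was 3.04 on that array and between 2.16 and 2.25 on the others. For Gapdh the ratio set that array less apart, at 4.65, with 3.84 in Hom, 3.19 in Het replicate 1 and 4.18 in WT. Of 20 cardiomyocyte markers, 19 were below WT in Het replicate 2, where 54.8% of all kept probe sets were, and their summed intensity was 52550 in Hom, 67560 and 25160 in Het, and 52890 in WT; none was at or below the floor on all arrays. Of 13 kept macrophage markers, 12 were above WT in Het replicate 2, where 45.1% of all kept probe sets were. The 14 macrophage markers summed to 4844 in Hom, 4238 and 7247 in Het, and 4961 in WT. All 7 kept platelet markers were above WT in both Het arrays, where 25.7% of all kept probe sets were. The 8 platelet markers summed to 1320 in Hom, 2582 and 3882 in Het, and 1474 in WT. Itgb3 alone was below the floor throughout. In Het replicate 2 all 13 endothelial markers (median -0.58) and all 3 kept adipocyte markers (median -1.05) were below WT, against 54.8% of all kept probe sets. Both kept erythroid markers were at least 2-fold above WT on that array, where 2.56% of all kept probe sets were. The part of these cell types in the values below was not tested, and in whole tissue fewer cells of a type and less RNA per cell cannot be told apart. For this reason the Het arrays are given one by one.

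Acta2, the actin of vascular smooth muscle and the usual marker of myofibroblasts, was read by 1416454_s_at at 2970.2 in Hom, 2934.3 in Het replicate 1 and 3770.6 in Het replicate 2, against 2669.1 in WT. WT was the lowest array, and Hom and Het replicate 1 were nearly equal. Hom was 0.15 above WT on the log2 scale (SE 0.55, limma adjusted p = 1), Het replicate 1 was 0.14 above and Het replicate 2 was 0.50 above. Its probes may hybridise to more than 1 transcript, and actin genes are close copies of each other. The second Acta2 probe set, 1456658_at, read between 18.4 and 23.2 on all arrays, too near the floor to give a direction.

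The Acta2 promoter is shown with that of Myl9 because both hold CArG-type sequences, and with that of Tpm2 because Tpm2 was one of the genes named as high in Het. RefSeq promoters of build GRCm38.p6 were at hand for 7 of the 10 genes, and Actg2, Tagln and Myh11 had none. Each run below is the 250 bases before the transcription start, 5′ to 3′ on the strand of the gene, and capitals mark matches. Acta2 lies at chr19:34255374-34255623 on the minus strand, Myl9 at chr2:156775214-156775463 on the plus strand and Tpm2 at chr4:43523555-43523804 on the minus strand.
Acta2: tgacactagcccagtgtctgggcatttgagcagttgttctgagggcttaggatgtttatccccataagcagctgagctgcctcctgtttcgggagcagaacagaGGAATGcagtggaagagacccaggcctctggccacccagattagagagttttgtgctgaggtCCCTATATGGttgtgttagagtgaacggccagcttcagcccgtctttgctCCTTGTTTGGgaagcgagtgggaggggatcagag
Myl9: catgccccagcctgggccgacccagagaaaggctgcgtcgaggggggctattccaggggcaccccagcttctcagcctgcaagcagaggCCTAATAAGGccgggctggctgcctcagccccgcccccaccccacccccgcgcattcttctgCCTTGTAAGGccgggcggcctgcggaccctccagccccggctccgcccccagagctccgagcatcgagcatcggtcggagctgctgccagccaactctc
Tpm2: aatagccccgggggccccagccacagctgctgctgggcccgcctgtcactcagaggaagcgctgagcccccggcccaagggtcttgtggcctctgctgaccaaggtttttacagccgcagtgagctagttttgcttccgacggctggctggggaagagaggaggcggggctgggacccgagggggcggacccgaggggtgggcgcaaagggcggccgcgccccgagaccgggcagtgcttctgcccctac
Windows from 250 bases before to 50 after the start were searched on both strands for the CArG box, for a CArG-like sequence with 1 G or C in its A/T core, and for CATTCC, the core of the MCAT element; no base was shared by 2 of the marked matches. Acta2 held CArG-like sequences beginning at -84 and -34 and a CATTCC on the opposite strand at -146. Myl9 held a CArG box at -161 and a CArG-like sequence at -99. Tpm2 held none of the 3 in this window. A CArG box occurred in 1.63% of 32851 promoters, a CArG-like sequence in 8.5% and CATTCC in 14.7%. Among the 7 genes, Myl9 had the only CArG box, Acta2 and Myl9 the CArG-like sequences, and Acta2, Tpm1 and Cald1 a CATTCC. These matches describe letters in a window and not binding.

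Actg2, the actin of visceral smooth muscle, was read by 1422340_a_at at 81.8 in Hom, 111.5 in Het replicate 1 and 89.6 in Het replicate 2, against 37.2 in WT. All 3 mutant arrays were above the single WT array. The gene was 2.2-fold above WT in Hom, 3-fold in Het replicate 1 and 2.41-fold in Het replicate 2. The log2 difference of Hom from WT, 1.14, has the WT array in common with the comparison that chose the gene, so it carries no test. Both Het arrays were at least 2-fold above WT for 1 of the 10 genes, Actg2, and the share over all kept probe sets was 0.291%. The gene is dim, and with a floor at the median of all values its Het minus WT difference was 0.69 in place of 1.43 and its Hom minus WT difference 0.40 in place of 1.14, so the 2-fold differences are lost with that floor. Hom was below both Het arrays by 0.45 and 0.13.

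The genes whose values over the 4 arrays lay nearest to those of Actg2 were Cby1, Gpatch1, Tmem87a, Pde8a and Aldh16a1. Their Euclidean distances, taken on log2 values minus each gene's own mean, ran between 0.231 and 0.424, against a median of 1.49 over 1991 genes. Cby1 read 65.1 in Hom, 111.2 and 80.6 in Het, and 32.7 in WT. With 4 arrays many genes can share a pattern, and likeness here is a description of these arrays.

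Tpm2, beta-tropomyosin, gave different patterns with its 4 probe sets. The brightest, 1419738_a_at, read 209.3 in Hom, 323.1 in Het replicate 1 and 1111.9 in Het replicate 2, against 316.1 in WT, so that Het replicate 2 alone was high. This was 3.52-fold over WT, while Het replicate 1 was at 1.02-fold. The second, 1425028_a_at, read 59 in Hom, 124.9 and 225.4 in Het, and 54.9 in WT, and there both Het arrays were above WT, by 2.28-fold and 4.11-fold. The x-type probe set 1449577_x_at, which can bind several genes, read 15.2 in Hom, 25.1 and 53 in Het, and 17.5 in WT, with Hom and WT under the floor. These 3 probe sets had Het replicate 2 as the highest array and Het replicate 1 as the next.

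The remaining Tpm2 probe set ran the other way. It is 1419739_at, with 114.1 in Hom, 93.1 and 70.2 in Het, and 146.1 in WT, so that WT was the highest array and Het replicate 2 the lowest. On the log2 scale Het replicate 1 stood at -0.65 and Het replicate 2 at -1.06 from WT. A high Tpm2 in Het therefore holds for 3 of its 4 probe sets, and in Het replicate 1 the brightest of them was level with WT. Without Het replicate 2, the Het minus WT difference of the brightest probe set was 0.03. In Hom the brightest probe set was below WT by 0.60 and the second above it by 0.10.

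The nearest patterns to the brightest Tpm2 probe set were those of Laptm5, Fermt3, S100a4, Tmem40 and Gtf2h4, with distances between 0.307 and 0.549 against a median of 2.56 over 592 genes. Laptm5 read 133 in Hom, 154.7 and 669.6 in Het, and 178.2 in WT. They were picked for this likeness, so that they peak where Tpm2 does is given by the choice.

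Tpm1, alpha-tropomyosin, which is abundant in cardiomyocytes, was lowest in Het replicate 2 with 2 of its 3 probe sets. The brightest, 1423049_a_at, read 6505.6 in Hom, 9110.8 in Het replicate 1 and 3138 in Het replicate 2, against 7779.3 in WT, and 1456623_at read 68.3 in Hom, 101 and 36.8 in Het, and 81.8 in WT. Against WT, Het replicate 2 stood at -1.31 and -1.15 on the log2 scale, while Het replicate 1 stood at 0.23 and 0.30. The middle probe set, 1423721_at, read 276.6 in Hom, 299.6 and 307.6 in Het, and 255.2 in WT, with all 3 mutant arrays slightly above WT. The Hom minus WT differences were -0.26, -0.26 and 0.12 (limma adjusted p = 1 for each).

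Desmin, the intermediate filament of muscle cells that ties their contractile units together, followed the same order as the brightest Tpm1 probe set. Des was read by 1426731_at at 123.9 in Hom, 163 in Het replicate 1 and 63 in Het replicate 2, against 152.4 in WT. With 1426732_at the values were 80 in Hom, 93.9 and 60.8 in Het, and 91.8 in WT. Both probe sets were lowest in Het replicate 2, by 1.27 and 0.59 below WT on the log2 scale. In Hom they were 0.30 and 0.20 below WT (limma adjusted p = 1 for both). The cardiomyocyte markers had a median from WT of 0.05 in Hom, with 0.33 and -1.11 on the first and second Het array; their part in the Tpm1 and Des values was not tested.

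Myl9, the regulatory light chain of smooth muscle myosin, was read by 1452670_at at 724 in Hom, 929 in Het replicate 1 and 1039.4 in Het replicate 2, against 1069.9 in WT. Hom was the lowest array and WT the highest on the deposited scale. The log2 difference from WT was -0.56 in Hom (SE 0.54, limma adjusted p = 1) and -0.20 in Het replicate 1. In Het replicate 2 it was -0.04, and 0.20 with each array centred on the common median, so no direction is given for that array. The difference between Hom and WT was larger than the 0.16 between the Het arrays, but the fit's SE is of the same size as the difference.

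Tagln, transgelin or SM22, an early marker of smooth muscle and of myofibroblasts, was read by 1423505_at at 1215.1 in Hom, 1217.5 in Het replicate 1 and 2057.5 in Het replicate 2, against 882.9 in WT. WT was the lowest array, Hom and Het replicate 1 were alike, and Het replicate 2 was the highest. Hom was 0.46 above WT on the log2 scale (SE 0.58, limma adjusted p = 1), Het replicate 1 was 0.46 above and Het replicate 2 was 1.22 above. The Het arrays themselves were 0.76 apart, more than Hom and WT.

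Cnn1, calponin 1, which inhibits myosin ATPase on actin filaments, was read by 1417917_at at 46.5 in Hom, 22 in Het replicate 1 and 59.3 in Het replicate 2, against 54.2 in WT. Het replicate 1 was low and close to the floor, and the other 3 arrays lay together. The probe set was not kept and has no test.

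Cald1, caldesmon, which binds actin and myosin in smooth muscle and in other cells, had 3 probe sets of opposite course. The brightest, 1424769_s_at, whose probes may hybridise to more than 1 transcript, read 862.3 in Hom, 841.7 in Het replicate 1 and 1738.8 in Het replicate 2, against 821.6 in WT. Only Het replicate 2 differed by more than 2-fold, at 2.12-fold. The second, 1424770_at, read 172.4 in Hom, 130.7 and 116.8 in Het, and 174.9 in WT, and the third, 1424768_at, read 125 in Hom, 102.9 and 84.5 in Het, and 123.4 in WT. With these the Het arrays were both below WT and Hom, by between 0.26 and 0.58 log2 units relative to WT. Hom and WT were nearly level with all 3 (0.07, -0.02 and 0.02; limma adjusted p = 1 for each), and the last of these was -0.02 after centring on the common median.

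**Figure D2:**
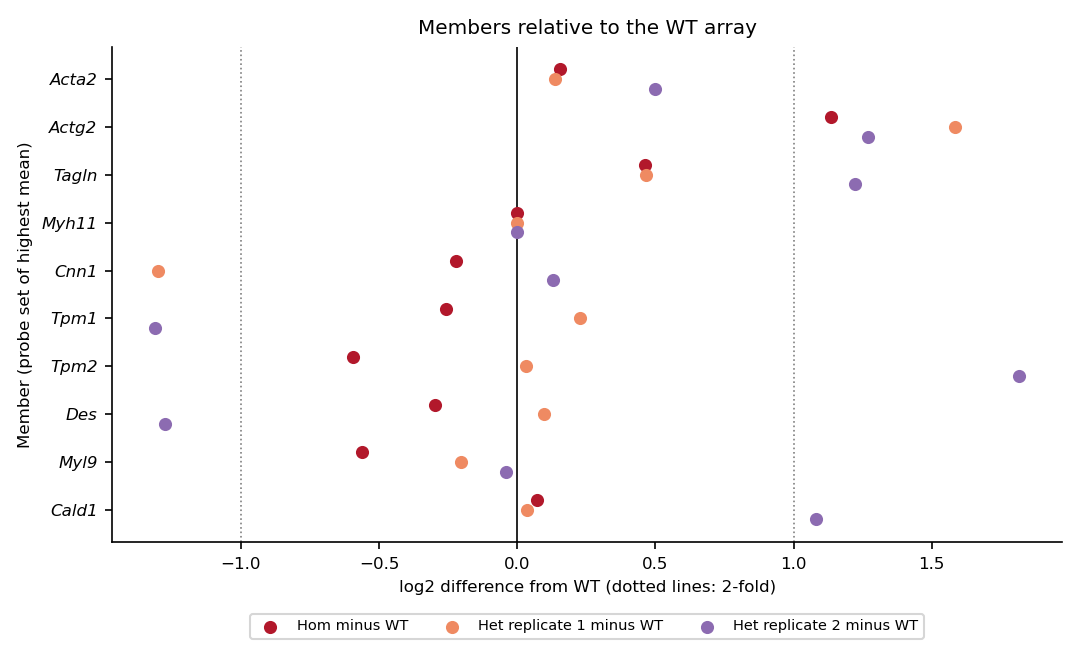
Log2 difference from the WT array (horizontal axis) of the 10 members (vertical axis), each by its probe set of highest mean, for Hom, Het replicate 1 and Het replicate 2. Dotted lines mark 2-fold. Actg2 lies beyond 2-fold on all 3 mutant arrays, and Tagln, Tpm2 and Cald1 above and Tpm1 and Des below 2-fold in Het replicate 2.

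The comparison of Hom with WT asked what differs with 2 mutant copies. Over the 10 members, each by its probe set of highest mean, the median log2 difference was -0.11, against 0.01 over all kept probe sets; it was -0.03 after quantile normalization and -0.01 over all 20 member probe sets. Of the 10, 4 were above WT, 5 below and 1 at the floor on both, and 51.6% of all kept probe sets were above WT and 48.2% below. Actg2 was the 1 member at least 2-fold higher, where 0.696% of all kept probe sets were, though not with the floor at the median, and 0 were at least 2-fold lower, where 0.537% were. The 11 kept probe sets of the 6 genes other than Actg2 and Tpm2 were tested with limma, and 0 passed an adjusted p of 0.05 (unadjusted p between 0.315 and 0.973). Over all 11356 kept probe sets 0% passed in limma, with 66 under an unadjusted 0.05, where 568 would be by chance. The Het pair gives that fit its 1 residual degree of freedom, and the single Hom and WT arrays are taken to vary as much. Yet log2 differences within the Het pair spread more widely (SD 0.62) than Hom minus WT did (SD 0.34). With so wide an error term few calls could be made. The absence of calls, here and in the gene lists below, therefore does not show that Hom is like WT.

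Relative to WT, 5 of the 10 members were above WT in both Het arrays and 1 was below in both, where 25.7% and 28.6% of all kept probe sets were. The 5 were Acta2, Actg2, Tagln, Tpm2 and Cald1, and the 1 was Myl9, whose difference on Het replicate 2 turned positive after median centring. The members' median was 0.07 for Het replicate 1, where 7 were above WT and 2 below (51.8% and 48.1% of all kept probe sets), and 0.31 for Het replicate 2, where 6 were above and 3 below (45.1% and 54.8%). These counts take the brightest probe set of each gene. Over all 20 member probe sets, Het replicate 2 had 9 above and 9 below WT with a median of 0, and 8 were above and 5 below in both Het arrays. Over all kept probe sets the medians were 0.01 and -0.07. In Het replicate 2, 4 members were at least 2-fold above WT (Actg2, Tagln, Tpm2 and Cald1) and 2 at least 2-fold below (Tpm1 and Des), with 2.56% and 4.76% over all kept probe sets. In Het replicate 1 Actg2 was at least 2-fold above and Cnn1 at least 2-fold below, with 0.837% and 1.17% over all. WT was the lowest of the 4 arrays for 4 members, Acta2, Actg2, Tagln and Cald1, where it was for 19.4% of all kept probe sets. These counts hold the contrast that chose Actg2 and Tpm2, and both Het differences subtract the same WT array, so nothing is read from them.

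Hom relative to Het gave a median of -0.23 for the 10 members with the mean of the Het arrays, against 0.04 over all kept probe sets. Hom was below both Het arrays for 4 members (Actg2, Tpm2, Myl9 and, by 0.003 and 0.76, Tagln) and above both for 0, where 24.2% and 30% of all kept probe sets were. The direction rests on the choice of probe set: the median was 0.016 when each gene's probe sets were averaged, and 0 over all 20 probe sets, of which 7 had Hom below both Het arrays and 4 above both. This comparison uses the Het arrays in which Actg2 and Tpm2 were seen high and was not tested.

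The Het arrays were at least 2-fold apart at 5 of the 10 members, each by its brightest probe set. Het replicate 2 was higher for Cnn1, Tpm2 and Cald1 and lower for Tpm1 and Des. Of all kept probe sets, 9.99% were 2-fold apart (3.88% higher and 6.11% lower in Het replicate 2). Over all 20 member probe sets, Het replicate 2 was at least 2-fold higher at 4 and lower at 3, with a median difference of 0. Tpm2 was chosen by its Het values and Cnn1 was not kept, so nothing is read from these counts. For 7 of the 10 members Hom and WT were closer to each other than the Het arrays were, and this held for 70.2% of all kept probe sets. The exceptions were Actg2 and Myl9, with Myh11 at the floor.

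**Figure D3:**
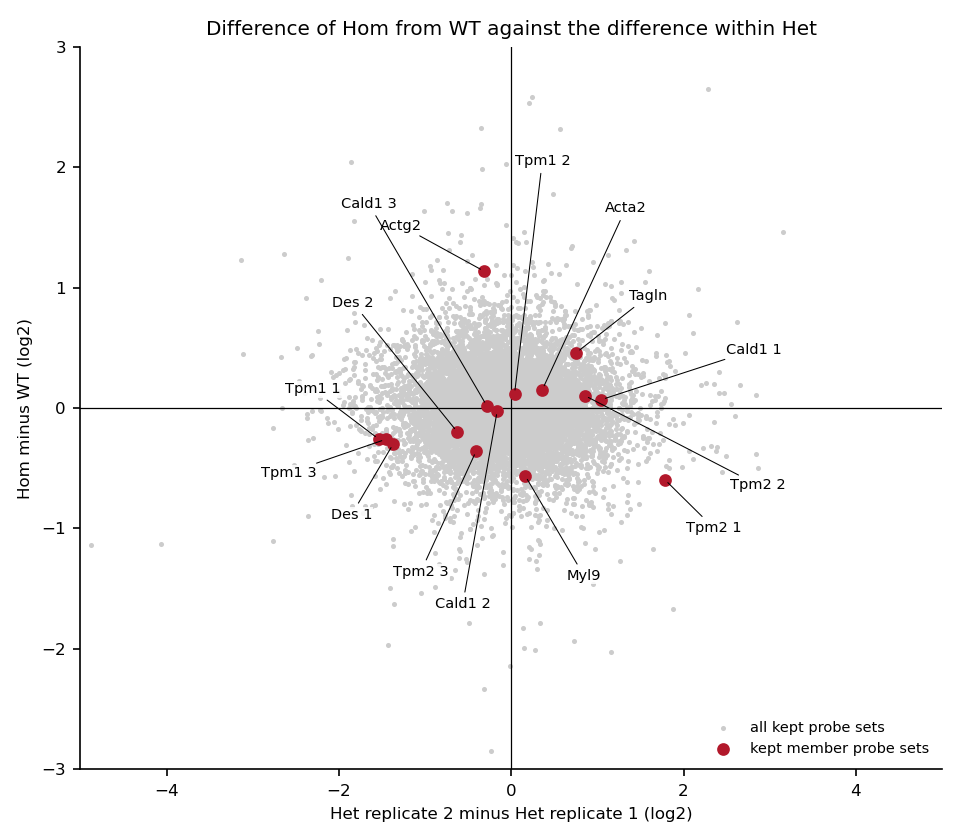
Hom minus WT (vertical axis, log2) against Het replicate 2 minus Het replicate 1 (horizontal axis, log2) for all 11356 kept probe sets (grey) and the 15 kept member probe sets (red, numbered where a gene has several kept). Actg2 stands out upwards at 1.14, Tpm2 probe set 1 to the right at 1.78, and Tpm1 probe sets 1 and 3 with Des probe set 1 to the left.

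Other genes of the contractile pathway were taken from lists of textbook members. Of 27 further genes of the smooth muscle apparatus, 20 were on the array by name and 14 were kept, and 0 were called between Hom and WT. Their median from WT was -0.12 in Hom, -0.07 in Het replicate 1 and 0.01 in Het replicate 2, where it was 0.25 after centring on the common median. In Hom 4 were above and 10 below WT, where 51.6% and 48.2% of all kept probe sets were. Among the kept genes the lowest differences of Hom from WT were those of Mylk, the myosin light chain kinase that switches on contraction (79.3 in Hom, 78.3 and 111 in Het, 111.8 in WT), and Dstn, destrin, which takes actin filaments apart (1807.1 in Hom, 2086.9 and 2123.1 in Het, 2546.2 in WT). The highest differences of the Het mean from WT were those of Flna, the actin crosslinker filamin A (473.7 in Hom, 622.8 and 659 in Het, 474.2 in WT), and Pdlim3. Smtn, smoothelin of contractile smooth muscle, read 116.3 in Hom, 124.9 and 60.8 in Het, and 112.2 in WT, low in Het replicate 2 alone.

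The serum response factor list had 7 of 12 genes kept, with medians of 0.22 in Hom, 0.18 in Het replicate 1 and -0.34 in Het replicate 2, and 0 called; the last median was -0.10 after centring on the common median. Srf itself read 168.4 in Hom, 146 and 135.2 in Het, and 167.2 in WT. Among the kept genes its partner Elk4 had the highest Hom minus WT difference, with 686.6 in Hom, 460 and 398.7 in Het, and 386.6 in WT. Klf4, a repressor of smooth muscle genes, had the lowest Hom minus WT difference among them, with 531.8 in Hom, 386.8 and 464.5 in Het, and 589.7 in WT.

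The cytoplasmic counterparts of the members, 12 kept of 13, had medians of -0.12 in Hom, -0.06 in Het replicate 1 and -0.02 in Het replicate 2. This last median was 0.22 after centring on the common median, and the first was -0.001 after quantile normalization. Myl12a, a cytoplasmic regulatory light chain, read 1879.6 in Hom, 2485.2 and 3257.6 in Het, and 1979.3 in WT. The cytoplasmic actin Actb read 7025.9 in Hom, 7510.1 and 4766.9 in Het, and 8388.3 in WT, with Het replicate 2 the lowest. The 11 striated muscle counterparts had medians of -0.04 in Hom, -0.002 in Het replicate 1 and -1.02 in Het replicate 2. After quantile normalization the medians of Hom and Het replicate 1 were 0.06 and 0.04. All of these genes but Acta1 are also among the cardiomyocyte markers, so the 2 lists are not separate observations. In Het replicate 2, 10 of the 11 were below WT, where 54.8% of all kept probe sets were. Myl7, the atrial light chain, was the exception, at 1348.3 in Hom, 1364.3 and 2659.1 in Het, and 1672.8 in WT.

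**Figure D4:**
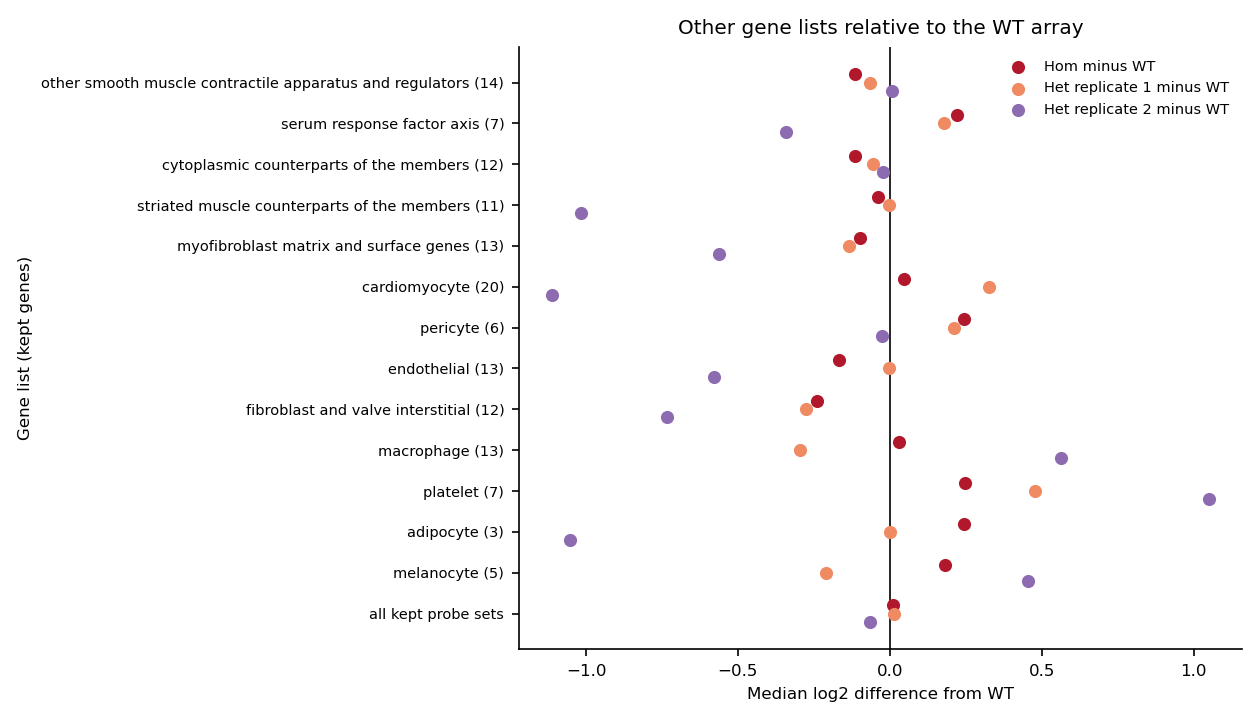
Median log2 difference from WT (horizontal axis) of each other gene list with at least 3 kept genes (vertical axis, number of kept genes in brackets) for Hom, Het replicate 1 and Het replicate 2, with all kept probe sets in the lowest row. Cardiomyocyte, striated muscle and adipocyte lists lie near -1 in Het replicate 2, and the platelet list near 1. All genes of the striated muscle list but Acta1 are also in the cardiomyocyte list.

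Of 13 kept matrix and surface genes of myofibroblasts, 8 were below WT in both Het arrays and 2, Tnc and Thy1, were above in both, where 28.6% and 25.7% of all kept probe sets were. The medians were -0.10 in Hom, -0.14 in Het replicate 1 and -0.56 in Het replicate 2. After quantile normalization the Hom median was -0.01, and that of Het replicate 2 was -0.32 both then and after centring on the common median. Postn, periostin, a matrix protein of valve interstitial cells and myofibroblasts, read 9182.4 in Hom, 6125.1 and 5806.9 in Het, and 11203.7 in WT. Col1a1, a fibrillar collagen chain, read 937.9 in Hom, 931.1 and 584.1 in Het, and 1267.5 in WT. Ccn2, a TGF-beta-induced matricellular protein, had the highest Het mean minus WT difference, with 929.5 in Hom, 790.9 and 2079.8 in Het, and 800.1 in WT, and of the Het arrays only replicate 2 was above WT. Tnc, tenascin C, had the highest Hom minus WT difference, with 264.8 in Hom, 157.8 and 160.5 in Het, and 140 in WT. None of the 13 was called between Hom and WT.

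Markers of pericytes, the contractile cells of small vessels, were kept for 6 of 10 genes and had medians of 0.24 in Hom, 0.21 in Het replicate 1 and -0.03 in Het replicate 2, where it was 0.21 after centring on the common median. Kcnj8, a potassium channel subunit of pericytes, was above WT on all 3 mutant arrays, at 155.9 in Hom, 151.6 and 173.5 in Het, and 95.8 in WT. Pdgfrb, the receptor that recruits pericytes, read 233.2 in Hom, 195.9 and 162.8 in Het, and 248.9 in WT. The summed level of the 10 markers was 1401 in Hom, 1437 and 1183 in Het, and 1223 in WT, with Cd248 below the floor on all arrays. Fibroblast and valve interstitial markers had medians of -0.24 in Hom, -0.28 in Het replicate 1 and -0.73 in Het replicate 2, and summed to 56310 in Hom, 57030 and 38130 in Het, and 66980 in WT; after quantile normalization the medians of Hom and Het replicate 2 were -0.02 and -0.41. The part of these cells in the Acta2, Actg2 and Tagln values was not tested.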

How the data were processed

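The members and all gene lists were chosen with earlier results of these data known. The deposited values are intensities on a linear scale, 1 per probe set and array; which software made them is not given in the sources used here. The trimmed mean without 2% at each end was 150.1 on each deposited array, so they were used without further scaling. Gene names came from the platform's annotation, brought up to date through gene identifiers: 20393 had 1 gene, 691 several and 1606 none, 20364 identifiers matched RefSeq, and 64 control probe sets were left out.

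Values were floored at 18.9 and log2 transformed, and probe sets with a mean of at least 62.1 were kept. Limma 3.58.1 in R 4.3.3 (lmFit, eBayes, Benjamini-Hochberg over all kept probe sets, threshold 0.05) was fitted to 3 groups. A trial on simulated data drew the error of every array from the Het pair. That trial does not show how the fit performs where Hom and WT vary less than the Het pair. A gene was represented by its probe set of highest mean. Named were all members, the 5 nearest patterns to Actg2 and to Tpm2, and from each list the 2 highest and 2 lowest for Hom and for the Het mean. Lmod1 and the dim genes of the closing section fall outside this rule. The Het arrays shared identical values at 82 probe sets and carry separate titles. Alternatives were median centring, quantile normalization, other floors and filters, the mean of all probe sets, a slope on mutant copies, and leaving out each Het array. Figures used matplotlib 3.10.9 in Python 3.11.15.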

Additional observations from a re-analysis of the deposited data

How the results depend on the processing

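The count of probe sets called in limma stayed at 0 under all 11 alternatives run. Some of these tested a slope on mutant copies over the groups, and not Hom against WT. Fits that take their error from the Het pair carry the limit given above, so this count does not show that Hom is like WT. Centring on the common median moved the median kept probe set of Het replicate 2 to 0.18 from WT, against -0.07 on the deposited scale. The median of the members for Het minus WT, 0.16, was 0.44 with no floor and -0.058 when each gene's probe sets were averaged. Averaging also reversed the Hom minus Het median, which was 0.016 in place of -0.23; the causes were not tested. The difference between the Het arrays, 0.26, was 0.52 with median centring and 0.081 with a floor at the median. Leaving out each Het array in turn gave 0.07 to 0.31 for Het minus WT and -0.35 to -0.18 for Hom minus Het. Hom minus WT holds no Het value and so stayed at -0.11 by construction. No group then had a pair, so these are values without a test. Over single genes, 88 of 90 values of Hom minus WT and 87 of 90 of Het minus WT were counted as stable. Stable meant the same direction and side of the threshold. Where untested, it meant a move of less than the SD of that gene's own Het pair. The others were Acta2 with averaged probe sets (0.01) and, without a floor, Myh11 in both. Actg2 with the floor at the median was the remaining case (0.40 for Hom and 0.69 for Het). The counts include values that a setting could not change: all under another filter, and Hom minus WT without a Het array. Leaving out 1 Het array cannot move Het minus WT beyond the SD of the gene's own Het pair. Those values could therefore only be counted as stable, whatever the gene. The counts also include Het minus WT differences that changed sign. These were Cald1 with averaged probe sets (0.56 to -0.12) and Cnn1 without Het replicate 1 (-0.59 to 0.13). Without Het replicate 2, Tpm1 (-0.54 to 0.23) and Des (-0.59 to 0.10) changed sign too. No paired analysis was possible because the groups share fewer than 2 replicate numbers. Dim members (Actg2, Cnn1, Des, Myh11) are the least certain, and signal over background was not analysed here.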

Other observations

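A few dim genes beside the members were chosen after their values were seen and were below the mean needed to be kept. Mrtfa, a coactivator of serum response factor that responds to actin, read 24 in Hom, 51.5 and 35.1 in Het, and 81.3 in WT, with WT the highest and Hom the lowest. Mrtfb and Myocd, of the same family and also not kept, did not share this order. Mrtfb read 63.7 in Hom, 38.8 and 65 in Het, and 60.7 in WT. Myocd read 45.7 in Hom, 35.3 and 10.2 in Het, and 38.2 in WT. Ppp1r14a, an inhibitor of myosin phosphatase in smooth muscle, read 18.7 in Hom, 4.7 and 49.1 in Het, and 13.2 in WT, above the floor in Het replicate 2 alone. Myh2, a fast skeletal myosin, read 95.6 in Hom, 8.6 and 4.9 in Het, and 10.2 in WT, while 5 of 10 skeletal muscle markers were below the floor on all arrays.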
